A study of Homo sapiens with 4 samples.

Results

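Heterogeneous nuclear ribonucleoproteins (hnRNPs) and serine/arginine-rich (SR) proteins are the abundant RNA-binding proteins that coat nascent transcripts and steer the choice of splice sites. The genes described here are those whose symbol in the deposited target names begins with HNRNP or is SRSF with a number, TRA2A, TRA2B, PTBP1, PTBP2, PTBP3 or SYNCRIP. They were 44 of the 20322 genes of the table: 26 HNRNP genes, 12 SRSF genes, 2 TRA2 genes, 3 PTBP genes and SYNCRIP. The rule reads names and no measured value, but it was chosen with earlier results of these data known.

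RNA was sequenced in 4 libraries of HT-29 cells, a human line from a colorectal adenocarcinoma, and the lines are labelled as derived from a liver metastasis in a mouse. In every sample the gene of IMP1 (symbol IGF2BP1), an oncofetal RNA-binding protein, had been targeted with CRISPR/Cas9, and cells were kept in puromycin. The IMP1-OE group (2 libraries) carried a PiggyBac vector with FLAG-tagged IMP1 and a short UTR, and the null group (2 libraries) carried the empty PiggyBac vector. The design text speaks of 2 cell lines per genotype, and the labels do not say whether they are separate clones or cultures, so the p-values speak only of the variation among these libraries, and it may be technical. Unedited HT-29 cells were not analysed here, so the comparison is IMP1 expression over the edited background.

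As background, hnRNPs often bind exonic and intronic silencers and oppose inclusion of an exon, whereas SR proteins bind exonic enhancers through RNA recognition motifs and recruit the splicing machinery through their arginine-serine tails. Many genes of both families hold their own protein level by splicing their transcripts into forms that nonsense-mediated decay removes. Several hnRNPs also act in the cytoplasm, and SYNCRIP (hnRNP Q) and HNRNPU are known partners of IMP1 in the protein complex that shields MYC mRNA from decay. The comparison sets mRNA levels of these proteins in cells given IMP1 against those in cells given the empty vector. Each gene is represented by 1 transcript, so neither splice forms nor decay isoforms can be read from these values.

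Library totals ran from 9343429 to 10594813 estimated counts, and the arylsulfatase gene ARSI alone took 8.01% and 12.4% of the counts of the IMP1-OE libraries and 17.8% and 17.3% of those of the null libraries. Values below are CPM (counts scaled to library size) after TMM scaling, which corrects for such shifts in composition. IGF2BP1 had 6.76 and 10.6 CPM in IMP1-OE, against 3.62 and 1.75 CPM in null, which is higher in both libraries that carry the IMP1 vector (log2 fold change 1.69, SE 0.56, edgeR adjusted p 0.453). Null replicate 2 stood apart: 16 interferon-stimulated genes summed to 952 and 1231 CPM in IMP1-OE, and in null to 1159 CPM in replicate 1 but 8646 CPM in replicate 2. The 10 colorectal epithelium markers, led by KRT8 and KRT18, summed to 26552 and 27313 CPM in IMP1-OE, against 28739 and 21036 CPM in null. The intestinal factors among them were at or near 0 outside null replicate 1. CDX2 had 0 and 0.285 CPM in IMP1-OE, against 4.60 and 0.219 CPM in null, and CDX1 was at 0 in every library but null replicate 1 (0.880 CPM). Summed markers of fibroblasts (2.09 to 13.1 CPM), endothelium (2.35 to 4.09 CPM), hepatocytes (at most 1.76 CPM) and neurons (at most 0.665 CPM) were low in all 4 libraries. The leukocyte list (1899 and 1751 CPM in IMP1-OE, against 2818 and 1431 CPM in null) was carried by the lysozyme gene LYZ, at 1884 and 1742 CPM in IMP1-OE, against 2798 and 1378 CPM in null, while the monocyte gene CD14 had 14.9 and 8.84 CPM in IMP1-OE, against 18.8 and 52.3 CPM in null (log2 fold change -1.58, SE 0.53, edgeR adjusted p 0.455). The defining gene PTPRC did not exceed 0.475 CPM and CD3E was at 0 throughout. The part of these markers in the results was not tested.

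Levels of single genes were set against each other per length, as CPM per kilobase of effective target length. The most abundant mRNA was HNRNPA2B1, the gene of an hnRNP that binds packaging and export signals, with group means of 448 CPM per kilobase in IMP1-OE and 382 in null. HNRNPK, a poly(C)-binding protein gene, followed at 364 and 340.1 CPM per kilobase, HNRNPL, whose protein binds CA repeats, at 360.2 and 261, and HNRNPF, a binder of G-tracts, at 267 and 278, each IMP1-OE first and null second. Among SR genes SRSF9 led at 201 CPM per kilobase in IMP1-OE and 172 in null. SRSF1, the founding SR protein, was near the bottom of the tested genes at 3.12 CPM per kilobase in IMP1-OE and 2.75 in null, and SRSF2 and SRSF3 stood 41.3-fold and 38.0-fold above it over the 4 libraries. The low SRSF1 level rests on 157 and 192 counts in IMP1-OE and 130 and 151 counts in null on a target of 5343 nt, and how fragments of this gene were assigned was not tested. Only PTBP2, the neuronal paralog of PTBP1, was lower, at 0.932 CPM per kilobase in IMP1-OE and 0.784 in null.

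**Figure D1:**
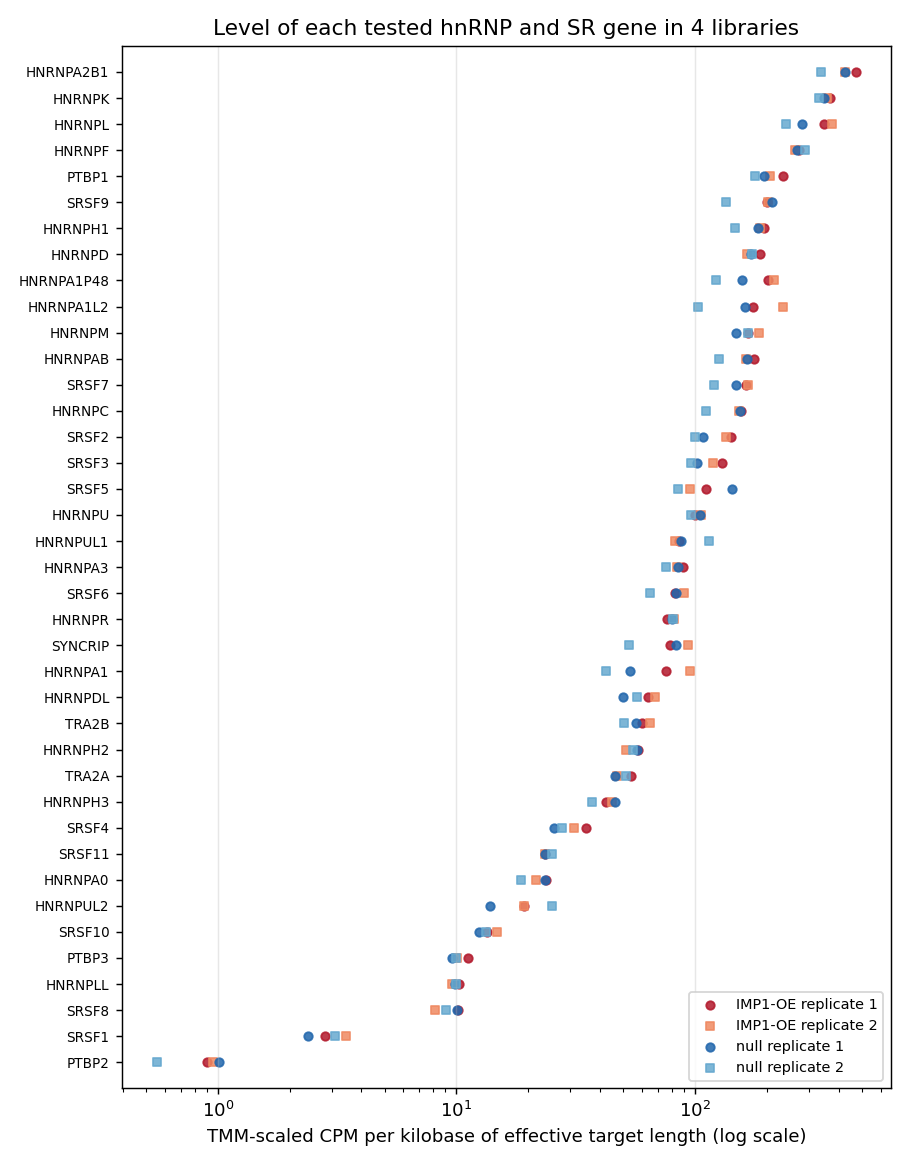
The plot of levels shows TMM-scaled CPM per kilobase of effective target length (x, log scale) of the 39 tested hnRNP, SR and PTBP genes (y) in each of the 4 libraries, red for IMP1-OE and blue for null. Levels span from PTBP2 and SRSF1 at the bottom to HNRNPA2B1 at the top, and the libraries of a gene lie close together relative to the distances between genes.

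Of the 44 genes, 39 passed the low-count filter and were tested with edgeR across all 12113 genes kept, and the lowest count of a tested gene in any library was 61 (PTBP2 in null replicate 2). The remaining 5 were at or near 0 in both groups. HNRNPCL1 had 0 and 7 counts in IMP1-OE and 0 and 7 in null, HNRNPCL2 8 and 4 against 0 and 0, HNRNPCL3 0 in every library, and HNRNPCL4 0 and 0 against 1 and 0. These 4 are intronless copies of HNRNPC. An observed count of 0 was taken to allow an expected count of up to about 3, which is not an absolute limit. SRSF12, an SR gene known mainly from testis and brain, had 2 and 3 counts in IMP1-OE and 1 and 6 in null.

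The tested genes were counted more deeply than the table as a whole, at a median of 222 CPM against 22.1 CPM over all genes tested, values that are not per length and stand here for precision. The median standard error of the log2 fold change was 0.18 against 0.30. None of the 39 passed an edgeR quasi-likelihood adjusted p of 0.05, which 0% of all genes passed. DESeq2, run on the same counts, called 0 of the 39 and 1.39% of all genes, and the authors' deposited table calls 0 of them and 1.28% of the genes with an adjusted p. At an unadjusted p under 0.05, edgeR gave 4 of the 39 as higher in IMP1-OE, where 4.34% of all genes were. These were HNRNPA1, HNRNPA1P48, HNRNPL and SRSF2. At the same threshold edgeR gave 0 as lower, where 5.84% of all genes were. In either direction the shares were alike, 10.3% of the 39 and 10.2% of all genes.

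HNRNPA1, the gene of an abundant splicing repressor that shuttles between nucleus and cytoplasm, had the largest difference and the smallest p (ENSG00000135486.19, target of 2596 nt). It stood at 194 and 245 CPM in IMP1-OE, against 137 and 109 CPM in null. Both IMP1-OE libraries were above both null libraries, a pattern shown by 21.3% of all genes tested. The log2 fold change was 0.84 (SE 0.21), a 1.79-fold difference (unadjusted p 0.00776, edgeR adjusted p 0.435). In the authors' deposited table its log2 fold change is 0.67 and its adjusted p 0.0590. DESeq2 run here gave 0.84 at the same unadjusted p of 0.000803, so these fold changes are not on the same scale. Fewer cells of a kind and less RNA per cell cannot be told apart in bulk RNA.

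HNRNPA1L2 and HNRNPA1P48 are retrocopies of HNRNPA1 with nearly the same sequence, and fragments of 18 to 50 nt can match all 3. HNRNPA1P48 had 314 and 331 CPM in IMP1-OE, against 244 and 189 CPM in null (log2 fold change 0.58, SE 0.19, edgeR adjusted p 0.453). HNRNPA1L2 had 230.3 and 309 CPM in IMP1-OE, against 214 and 136 CPM in null (log2 fold change 0.62, SE 0.28, edgeR adjusted p 0.510). Neither overlapped between the groups. Per length the copies stood 2.61-fold (HNRNPA1P48) and 2.53-fold (HNRNPA1L2) above HNRNPA1 itself. The parent gene took 26.3% and 27.7% of the 3 genes' summed counts in IMP1-OE and 23.0% and 25.1% in null, which did not overlap. Summed to 1 gene, a step chosen after the data were seen, they had 7760 and 9319 counts in IMP1-OE and 6087 and 3963 in null. The summed gene had a log2 fold change of 0.66 (SE 0.22, unadjusted p 0.0236, edgeR adjusted p 0.454). The levels of the 3 genes may therefore not be independent, and no single one of them is certain. How fragments were divided among the 3 genes was not tested.

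Whether HNRNPA1 passed depended on the libraries used. A fit without 1 null library has a lone null library, which is assumed to vary as the IMP1-OE pair does, so its calls carry no estimate of the spread between null samples. Without null replicate 1 the log2 fold change was 1.01 and the edgeR adjusted p 0.0426, and HNRNPA1P48 also passed (log2 fold change 0.77, adjusted p 0.0371), 2 of 39 genes, both higher in IMP1-OE, where 2.78% of all genes were called higher and 6.46% in either direction. Without null replicate 2 the log2 fold change of HNRNPA1 was 0.68, and 0 of the 39 genes passed where 0.396% of all genes did.

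The remaining hnRNP genes of the A/B type, which bind UAG-containing and AU-rich elements, differed less. HNRNPA2B1 had 1714 and 1552 CPM in IMP1-OE, against 1554 and 1224 CPM in null, and the groups overlapped. The log2 fold change was 0.23 (SE 0.19, edgeR adjusted p 0.706). HNRNPAB, HNRNPA3 and HNRNPA0 had log2 fold changes of 0.22, 0.10 and 0.10, and each overlapped between the groups. HNRNPD, the gene of the AU-rich element binder AUF1, had 292 and 259 CPM in IMP1-OE, against 268 and 270.1 CPM in null. The null libraries lay between the IMP1-OE libraries, and its log2 fold change was 0.03 (SE 0.17). Its relative HNRNPDL had 261 and 280.0 CPM in IMP1-OE, against 205 and 235 CPM in null, with no overlap (log2 fold change 0.30, SE 0.17, edgeR adjusted p 0.592).

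HNRNPL was the hnRNP gene outside the A1 group with the smallest p. It had 732 and 794 CPM in IMP1-OE, against 596 and 508 CPM in null. The groups did not overlap, and the 1.38-fold difference had a log2 fold change of 0.47 (SE 0.17, unadjusted p 0.0348, edgeR adjusted p 0.465). Its paralog HNRNPLL had 42.3 and 39.6 CPM in IMP1-OE, against 40.8 and 40.9 CPM in null, a log2 fold change of 0.00 (SE 0.18). Its libraries overlapped, and the difference between the paralogs was not tested.

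HNRNPC, whose protein binds U-tracts and counts the length of nascent RNA, had 488 and 479 CPM in IMP1-OE, against 483 and 348 CPM in null. The log2 fold change of 0.22 (SE 0.21, edgeR adjusted p 0.761) came to 0.00 without null replicate 2, the library with the low value. HNRNPK had 1072 and 1043 CPM in IMP1-OE, against 1012 and 964 CPM in null (log2 fold change 0.10, SE 0.15, edgeR adjusted p 0.865), which did not overlap although the difference was small. HNRNPM and HNRNPH1, splicing regulators of exon inclusion, also did not overlap, with log2 fold changes of 0.16 and 0.20. HNRNPH2, HNRNPH3, HNRNPF and HNRNPR lay between -0.06 and 0.07 and overlapped.

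The HNRNPU group encodes large nuclear scaffold proteins. HNRNPUL1 was the only tested gene of the 39 with both IMP1-OE libraries below both null libraries, a pattern shown by 21.9% of all genes tested. It had 335 and 323 CPM in IMP1-OE, against 341 and 448 CPM in null (log2 fold change -0.26, SE 0.19, edgeR adjusted p 0.680). The gap was narrow to null replicate 1 and wide to null replicate 2, and without null replicate 2 the log2 fold change was -0.05. HNRNPUL2 had 99.9 CPM in both IMP1-OE libraries, against 71.8 and 131 CPM in null. The null libraries lay on either side, so its log2 fold change of -0.02 (SE 0.30) became -0.39 without null replicate 1 and 0.48 without null replicate 2.

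Among the SR genes, SRSF2 (ENSG00000161547.17), whose protein is a splicing activator that stays in the nucleus, had the smallest p. It had 406 and 387 CPM in IMP1-OE, against 308 and 286 CPM in null. The groups did not overlap, and the 1.33-fold difference had a log2 fold change of 0.41 (SE 0.16, unadjusted p 0.0424, edgeR adjusted p 0.482). With any 1 library left out the log2 fold change stayed between 0.36 and 0.47. SRSF3, the smallest SR protein and a link to mRNA export, had 544 and 500.4 CPM in IMP1-OE, against 428 and 403 CPM in null (log2 fold change 0.33, SE 0.16, edgeR adjusted p 0.536). SRSF4 had 79.3 and 71.1 CPM in IMP1-OE, against 58.6 and 63.3 CPM in null (log2 fold change 0.30, SE 0.18, edgeR adjusted p 0.605). SRSF7, also an export adaptor, had 168 and 171 CPM in IMP1-OE, against 152 and 123 CPM in null (log2 fold change 0.30, SE 0.18, edgeR adjusted p 0.617). None of these 3 genes overlapped between the groups, and none passed the threshold. Both IMP1-OE libraries lay above both null libraries for 21.3% of all genes tested.

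SRSF1 had 14.9 and 18.3 CPM in IMP1-OE, against 12.7 and 16.5 CPM in null, and the groups overlapped (log2 fold change 0.18, SE 0.29, edgeR adjusted p 0.866). SRSF5, whose mRNA is known to respond to insulin, was one of 3 SR genes with a fitted value below 0. It had 179 and 154 CPM in IMP1-OE, against 231 and 137 CPM in null, so the null libraries lay on either side of the IMP1-OE libraries. Its log2 fold change was -0.14 with all libraries, 0.28 without null replicate 1 and -0.47 without null replicate 2. SRSF8, a retrocopy related to SRSF2, and SRSF11 were at -0.07 and -0.05, and SRSF6, SRSF9 and SRSF10 were at 0.23, 0.23 and 0.13. TRA2B, the gene of a binder of GAA repeats, had 248 and 268 CPM in IMP1-OE, against 236 and 209 CPM in null (log2 fold change 0.22, SE 0.17, edgeR adjusted p 0.698). Its groups did not overlap, while those of TRA2A did (log2 fold change 0.06).

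RefSeq promoters (GRCh38.p14, 250 bases before to 50 after a gene's first listed start) were available for 39 of the 44 genes, and HNRNPA1, HNRNPA1P48, HNRNPCL3, SRSF2 and TRA2A were not among them. Short windows upstream of the start are shown as examples for 4 of the genes whose groups did not overlap. Each of these 4 promoters also holds matches that are not shown, such as GC boxes in HNRNPL and PTBP1. Capitals mark the motif, and each run is 30 bases read 5′ to 3′ on the gene's strand.
SRSF3, chr6:36594320-36594349, plus strand, TATA box: tccagtatggcgTATAAAtaaaggcgagga
SRSF3, chr6:36594294-36594323, plus strand, CCAAT box: tgggggagcccgtCCAATcatgtgattcca
HNRNPL, chr19:38852411-38852440, minus strand, CCAAT box: gcgccccctgcccCCAATttttcttccccc
PTBP1, chr19:797351-797380, plus strand, CCAAT box: gctgcagcgggagCCAATgggcagcgcgcg
SRSF7, chr2:38751568-38751597, minus strand, GC box: ggggagaggaggGGGCGGgacagcatgggg
The SRSF3 TATA box begins 30 bases before the listed start. Over the 300-base promoters, searched on both strands with overlapping matches of different motifs counted for each, CCAAT was present in 18 of the 39 genes (46.2%) and in 35.7% of all 27305 promoters. GGGCGG was present in 66.7% and 44.6%, CCGGAA, the core bound by ETS factors, in 20.5% and 17.6%, and TATAAA in 12.8% of the 39 and in 3264 of the 27305 promoters. A match is a string of letters, and binding was not measured.

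The polypyrimidine tract-binding proteins repress exons flanked by pyrimidine-rich sequence, and PTBP1 gives way to PTBP2 as neurons mature. PTBP1 had 743 and 655 CPM in IMP1-OE, against 620.3 and 565 CPM in null, with no overlap (log2 fold change 0.24, SE 0.17, edgeR adjusted p 0.666). PTBP2 had 10.8 and 11.5 CPM in IMP1-OE, against 12.1 and 6.68 CPM in null, which overlapped (log2 fold change 0.25, SE 0.40, edgeR adjusted p 0.868). PTBP3 had a log2 fold change of 0.12 and did not overlap. Per length, PTBP1 exceeded PTBP2 by 258-fold and 214-fold in IMP1-OE and by 193-fold and 319-fold in null, and these ratios overlapped as well.

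**Figure D2:**
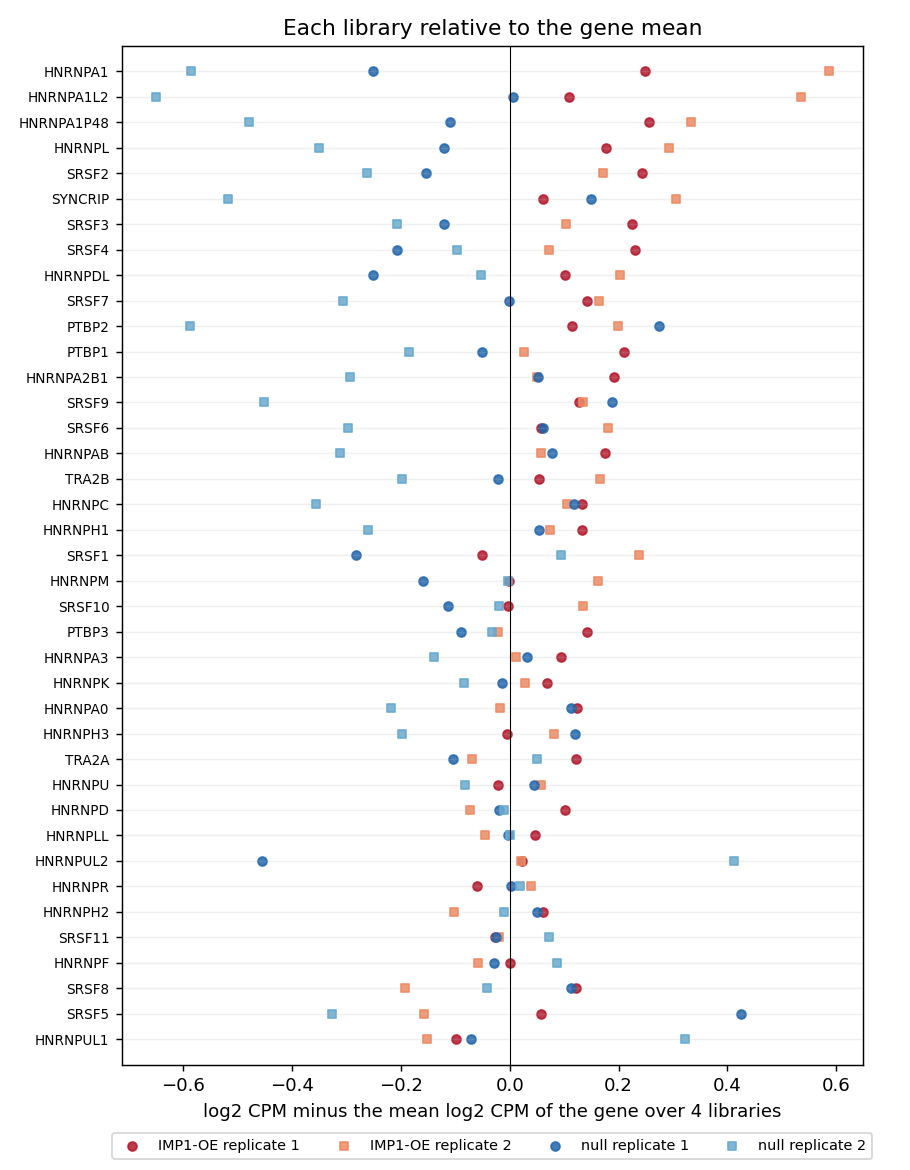
The plot of library deviations gives, for each of the 39 tested genes (y), log2 CPM minus the gene's mean over the 4 libraries (x), red for IMP1-OE and blue for null. For 16 genes both IMP1-OE points lie right of both null points, and for HNRNPUL1 both lie left of them. Null replicate 2 lies left of null replicate 1 for 25 genes. Over all genes tested these patterns held for 21.3%, 21.9% and 49.8%.

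SYNCRIP (ENSG00000135316.19) encodes hnRNP Q, which joins IMP1, HNRNPU, YBX1 and DHX9 on the coding region of MYC mRNA. It had 199.6 and 236 CPM in IMP1-OE, against 212 and 134 CPM in null. Null replicate 1 lay between the 2 IMP1-OE libraries, and null replicate 2 was low. Its log2 fold change was 0.33 (SE 0.26, edgeR adjusted p 0.698). Leaving out null replicate 1 gave 0.71 and leaving out null replicate 2 gave 0.04, so its size rests on which null library is used. Per length, SYNCRIP stood at 1.03 and 1.14 times its close paralog HNRNPR in IMP1-OE and at 1.05 and 0.652 times in null.

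HNRNPU had 685 and 724 CPM in IMP1-OE, against 718 and 657 CPM in null (log2 fold change 0.04, SE 0.16, edgeR adjusted p 0.959), and the groups overlapped. Of the partners outside the hnRNP and SR families, YBX1, the gene of a cold-shock domain protein, had 338 and 388 CPM in IMP1-OE, against 258 and 296 CPM in null (log2 fold change 0.39, SE 0.18, edgeR adjusted p 0.514). The RNA helicase gene DHX9 had 389 and 414 CPM in IMP1-OE, against 358 and 335 CPM in null (log2 fold change 0.21, SE 0.16, edgeR adjusted p 0.687). Both were higher in both IMP1-OE libraries, and neither passed.

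Among the 39 genes, 31 had a fitted log2 fold change above 0, as did 48.1% of all genes tested, and their median was 0.18 against -0.02 over all genes. With library totals in place of TMM the count was 37 of 39 where 55.6% of all genes were above 0, and with RLE scaling, upper-quartile scaling or ARSI left out it was 31. Both IMP1-OE libraries were above both null libraries for 16 of the 39, as they were for 21.3% of all genes tested. By family, 17 of 22 tested HNRNP genes, 10 of 13 SRSF and TRA2 genes and all 3 PTBP genes were above 0, with medians of 0.10, 0.22 and 0.24. Fragments can match all 3 A1 genes, and without these genes 14 of 19 HNRNP genes were above 0, with a median of 0.10. Summed over all 44 genes, the level was 12783 and 12649 CPM in IMP1-OE, against 11769 and 10534 CPM in null.

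**Figure D3:**
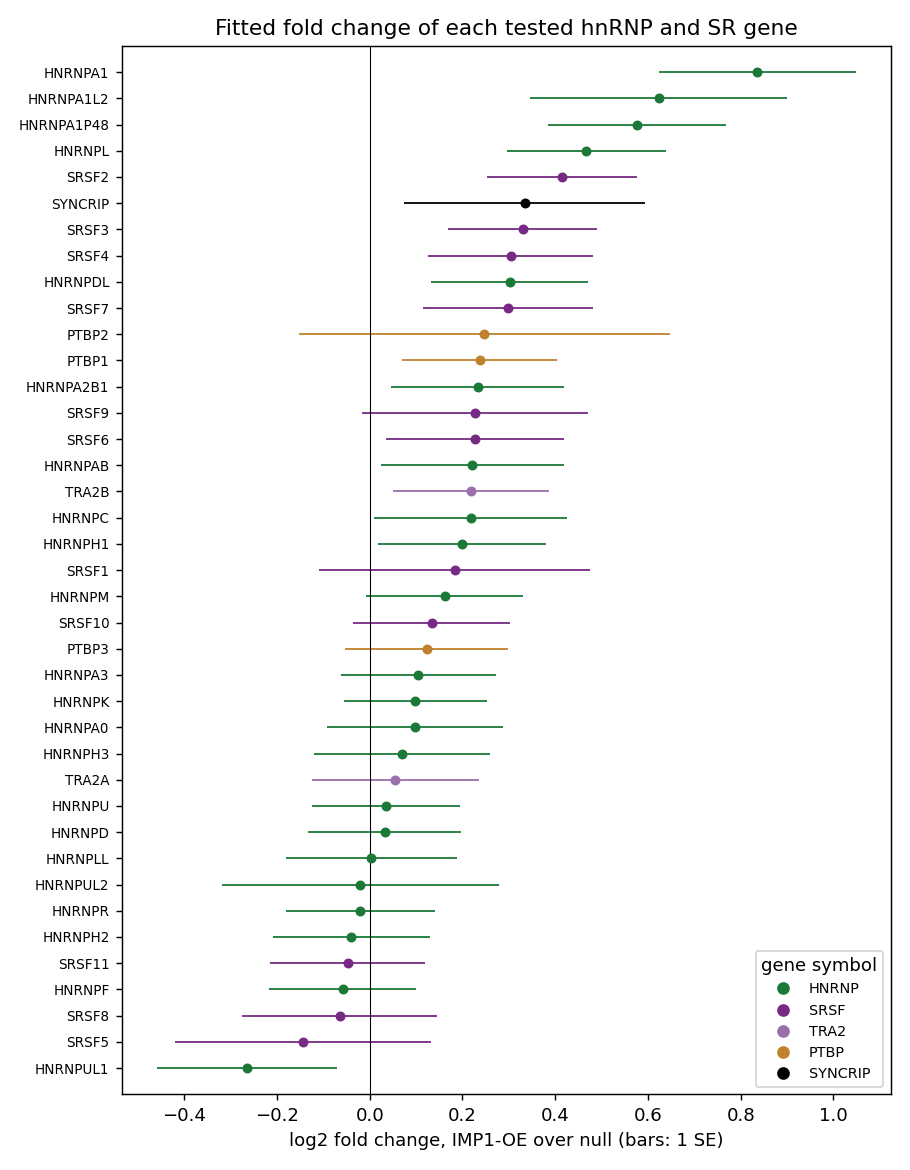
The plot of fold changes shows the fitted log2 fold change of IMP1-OE over null (x) with 1 standard error for each of the 39 tested genes (y), coloured by gene symbol. Values run from -0.26 (HNRNPUL1) to 0.84 (HNRNPA1), and library totals in place of TMM move 6 of the genes nearest 0 to the other side.

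The upward lean followed the null libraries unevenly. Null replicate 2 was below null replicate 1 for 25 of the 39 genes, as it was for 49.8% of all genes tested, and the median difference between them was -0.13 log2 units, against 0.00 over all genes. IMP1-OE replicates differed from each other by a median of 0.12 log2 units in size and null replicates by 0.20. Without null replicate 2, the library with the high interferon-stimulated genes, the median log2 fold change of the 39 was 0.06 with 29 above 0 (50.7% of all genes). Without null replicate 1 the median was 0.25 with 32 above 0 (49.8% of all genes). The part of the interferon difference in these values was not tested. Directions held in all 5 fits, the full one and those without 1 library each, for 23 genes as higher and for HNRNPUL1 as lower. The other 15 changed sign in at least 1 fit. These fits share libraries, and among the 23 the lowest value was 0.00012 for HNRNPC and 0.006 for SRSF1. The same count over all genes is not given here. DESeq2 without null replicate 1, a setting chosen after the data were seen, called 8 of the 39, all higher in IMP1-OE, where 4.6% were called higher and 8.92% of the genes with an adjusted p were called. The only null library in that fit is the one with the high interferon-stimulated genes, and its spread is taken from the IMP1-OE pair. The 8 genes were HNRNPA1, HNRNPA1L2, HNRNPA1P48, HNRNPL, SYNCRIP, SRSF9, HNRNPC and HNRNPA2B1. Without null replicate 2 it called HNRNPA1 alone (adjusted p 0.0456), where 2.38% were called.

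**Figure D4:**
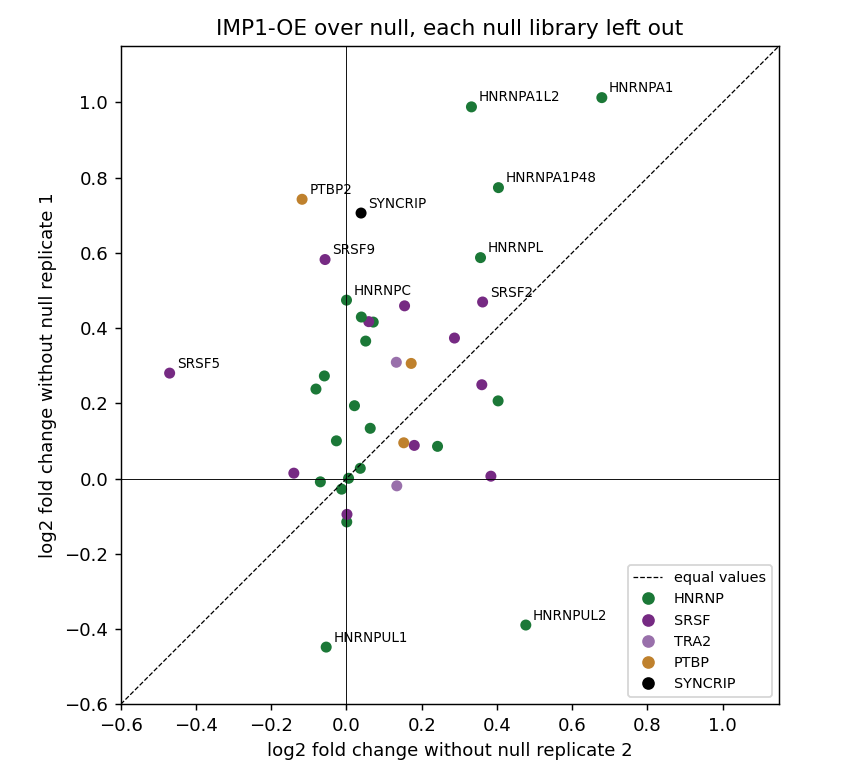
The plot with each null library left out sets the log2 fold change without null replicate 2 (x) against that without null replicate 1 (y) for the 39 tested genes. HNRNPA1, its copies, HNRNPL and SRSF2 are above 0 on both axes, SYNCRIP and HNRNPC are near 0 on the x axis, and SRSF5 and HNRNPUL2 change sign.

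Genes that act with the hnRNP and SR proteins were read from lists, and none of their members passed an edgeR adjusted p of 0.05. Of 11 SR protein kinases and importins, which phosphorylate the arginine-serine tails and carry the proteins into the nucleus, 8 were above 0 and 3 below, with a median of 0.10. The kinase gene CLK3 had 65.0 and 56.7 CPM in IMP1-OE, against 49.6 and 32.3 CPM in null (log2 fold change 0.57, SE 0.26, edgeR adjusted p 0.511). CLK4 and SRPK2 were at -0.74 and -0.20. Of 19 SR-related proteins, 11 were above 0 and 8 below, with a median of 0.01. The gene of the apoptosis-linked splicing factor ACIN1 had 58.6 and 72.1 CPM in IMP1-OE, against 90.3 and 101 CPM in null (log2 fold change -0.55, SE 0.19, edgeR adjusted p 0.457). SRRM1, a splicing coactivator gene, had 116 CPM in both IMP1-OE libraries, against 90.0 and 87.8 CPM in null, and CCNL2 was at -0.59.

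Of 38 tested genes of the spliceosome core, 26 were above 0 and 12 below, with a median of 0.06. The leading ones were the snRNP protein genes SNRPD1 and SNRPA1 and the U5 GTPase gene EFTUD2, at 0.45, 0.64 and 0.37 (edgeR adjusted p 0.526, 0.536 and 0.569). Of 5 tested hnRNPs that carry other symbols, 4 were above 0, with PCBP2, RBMX and RALY at 0.28, 0.26 and 0.10. Of 23 tested entries for other splicing regulators, with MATR3 entered under separate gene identifiers, 14 were above 0 and 9 below. RBM5 had 21.2 and 25.2 CPM in IMP1-OE, against 35.7 and 38.0 CPM in null (log2 fold change -0.67, SE 0.21, edgeR adjusted p 0.453). MBNL2, a muscleblind gene, had 39.7 and 41.4 CPM in IMP1-OE, against null values of 55.0 CPM in replicate 1 and 205 CPM in replicate 2 (log2 fold change -1.68, SE 0.58, edgeR adjusted p 0.456). ELAVL1, the gene of the mRNA-stabilising protein HuR, had 241 and 237 CPM in IMP1-OE, against 196 and 168 CPM in null (log2 fold change 0.39, SE 0.17, edgeR adjusted p 0.506). Of 10 nonsense-mediated decay factors, 4 were above 0 and 6 below, with a median of -0.02, and SMG9 and UPF2 were at -0.24 and -0.15. SRSF1 stood per length at 0.0372 and 0.0360 times HNRNPA1, its known antagonist in splice site choice, in IMP1-OE and at 0.0448 and 0.0734 times in null. The ratios did not overlap, and 2 libraries against 2 cannot give an exact two-sided permutation p under 0.333. SRSF1 itself overlapped between the groups, on 130 to 192 counts per library, and the HNRNPA1 level is uncertain because of its copies.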

How the data were processed

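RNA-seq of 2 IMP1-OE and 2 null libraries was analysed. Per the labels' protocols, fragments of 18 to 50 nt received linkers with molecular identifiers, ribosomal RNA was removed from the pool, and 15 PCR cycles followed. No source says whether the identifiers were counted, and floors therefore cover counting error only. The submitters' processing notes name kallisto 0.46.2, HISAT2 2.1.0, fastp 0.21, Cutadapt 3.5 and DESeq but no roles. Build, annotation release and counting strand: not given in the sources used here. Overlapping and antisense genes are uncertain for that reason. The deposited estimated counts (kallisto's column name, per the file headers) were whole numbers for 20322 targets, 1 per gene, and all 44 targets described are protein-coding. The authors' deposited table holds log2 fold changes and p-values. A further 2 library names match no label and were not used.

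Counts were tested with edgeR 4.0.16 (R 4.3.3): filterByExpr, TMM, quasi-likelihood F test of IMP1-OE against null with no covariate, Benjamini-Hochberg adjustment over 12113 genes and a threshold of 0.05. Standard errors are the log2 fold change divided by the root of F. Alternatives used DESeq2 1.42.0, voom in limma 3.58.1, changed scalings and filters, a replicate block, and each library left out with the tested genes kept as in the full fit. The steps were tested on simulated data. Values in every library are given for SYNCRIP, the 12 tested genes with the smallest edgeR p and 12 main genes by role, and up to 3 genes with the smallest p are named from each related list. HNRNPLL, HNRNPUL2, SRSF5, CD3E and CD14 were singled out after their values were seen. Members, lists and tests were chosen with earlier results of these data known. Gene identifiers matched a table of gene names for all 44.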

Additional observations from a re-analysis of the deposited data

How the results depend on the processing

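The count of genes called over the whole table depended on the test: edgeR's quasi-likelihood test called 0 (1233 at an unadjusted p under 0.05), DESeq2 168, limma-voom 1, edgeR's likelihood ratio test 155 and edgeR without a low-count filter 22. With 1 library left out it ranged from 0 to 783, and DESeq2 without null replicate 1 or null replicate 2, both chosen after the data were seen, called 1038 and 271. Of the 39 tested hnRNP and SR genes, 0 were called in the full fit, 0 to 2 with 1 library left out, 8 by DESeq2 without null replicate 1 and 1 by DESeq2 without null replicate 2. The 4 with an unadjusted p under 0.05 became 2 by the likelihood ratio test (9.92% of all genes), 0 to 16 with 1 library left out, and 15 and 7 by DESeq2 without null replicate 1 (18% of all genes) and without null replicate 2 (9.4%). The 16, without null replicate 1, were 14 higher and 2 lower in IMP1-OE, where 24.9% of all genes passed. Every fit without 1 library leaves 1 group with a lone library, assumed to vary like the other group. The causes were not tested. The labels do not say that replicate numbers pair libraries across groups. With the replicate number as a block, edgeR called 15 genes (0.124% of all genes), 0 of them among the 39. In that fit 3 of the 39 had an unadjusted p under 0.05, as did 10.5% of all genes. The correlation of deviations between same-numbered libraries was 0.157. The median log2 fold change of the hnRNP and SR genes tested (43 without a filter) kept its sign under all 14 alternatives planned and both added ones, from 0.06 to 0.26. Genes with fewer than about 3 counts per library, 0.283 to 0.321 CPM, are below what these depths show.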
